A study of Rattus norvegicus with 6 samples.

Results

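Apolipoproteins are the protein parts of the particles that carry lipids in blood. The 9 genes described here, Apoa1, Apoa2, Apoa4, Apob, Apoc1, Apoc3, Apoe, Apoh and Apom, were chosen by gene symbol, and all 9 were on the array, with 11 of 15866 probe sets. Of these, 5 genes (Apoa1, Apob, Apoc1, Apoc3 and Apoe) had a probe set bright enough on average over all arrays to be tested, and Apoa2, Apoa4, Apoh and Apom did not. RNA came from AR42J, a rat pancreatic cell line of acinar tumour origin, grown without dexamethasone (control, n = 3 cultures) or with 100 nM dexamethasone, a synthetic glucocorticoid, for 48 h (n = 3). All 6 cultures were started from stocks frozen at passage 29, plated for 24 h in 20% serum and then kept in 5% serum, so the results apply to a single line under these conditions. The 3 repeats of the experiment were spread over 5 months, and each culture was measured on its own Affymetrix Rat 230A array.

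Liver and small intestine make most circulating apolipoproteins. Apob forms the scaffold of the large triglyceride-rich particles, whereas Apoa1 is the main protein of high-density lipoprotein and activates the enzyme that esterifies its cholesterol. The small C apolipoproteins move between particles and modulate their lipolysis and uptake, and Apoe is the ligand by which remnant particles are taken up through receptors on liver and other cells. Many of these genes lie in compact groups: in the rat assembly GRCr8, Apoa1, Apoc3, Apoa4 and Apoa5 are consecutive protein-coding genes on chromosome 8, and Apoe, Apoc1, Apoc4 and Apoc2 are consecutive on chromosome 1.

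The comparison asks how the RNA of these genes differed between cultures with and without dexamethasone. Apoa1, Apoc3, Apoc1 and Apoe rose, by 14.6-fold, 4.05-fold, 2.38-fold and 2.29-fold, and the brighter probe set of Apob did not pass the test. Thus 4 of 5 tested members were higher and 0 were lower by limma at an adjusted p of 0.05, and the counts were the same at an unadjusted p under 0.05. The call of Apoc1 rests on the replicate block, without which 3 of 5 were higher. Apoc1 also lay near the brightness filter, a signal of 147.6, with controls 1 and 3 at 94.6 and 91.1. Its controls alone averaged below the filter on the log2 scale, so it entered the test through its treated cultures. In a fit without the filter it was also higher (adjusted p = 0.0068 by limma). Of all 7051 genes tested, 38.4% passed, 17.0% as higher and 21.4% as lower. Apoh and a second, dimmer probe set of Apob lay below background in controls and were higher in treated cultures in a fit without the brightness filter. Apoa2, Apoa4 and Apom were at or below background on all 6 arrays. RNA was taken from whole cultures, so more cells with a transcript and more transcript per cell cannot be told apart.

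Signals below are linear MAS5 values, the probe set summary of the Affymetrix software, given as mean ± SD over 3 cultures. Fold and log2 changes are dexamethasone over control from limma with the replicate number as a block, log2 changes carry their SE, and intervals are 95%. The background level of an array was the highest signal of its 27 Bacillus subtilis control probe sets, 51.7 to 97.3 on control arrays and 83.7 to 115.9 on treated arrays. Between 68.3% and 79.5% of probe sets per array lay above it. Signals of different probe sets are not on a common scale, so the levels of different genes were not compared.

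**Figure D1:**
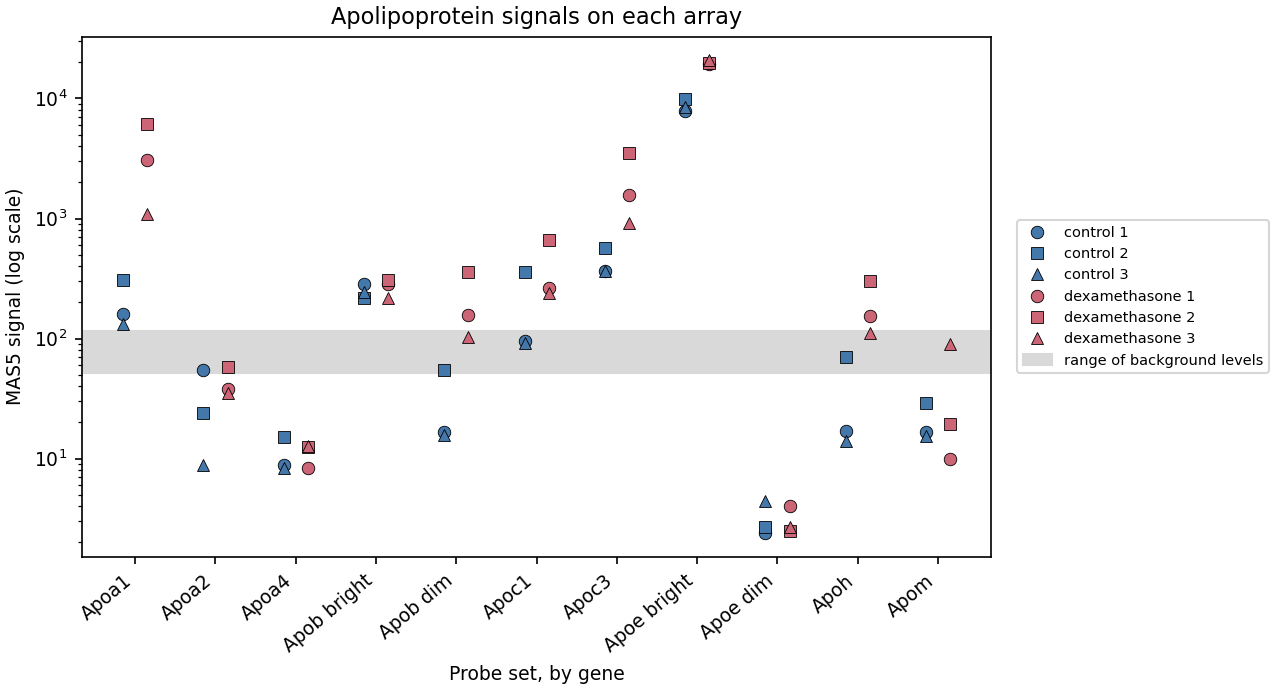
MAS5 signal (log axis) of the 11 apolipoprotein probe sets on each of the 6 arrays, with control cultures in blue, dexamethasone cultures in red and the marker shape giving the replicate number; the grey band spans the background levels of the 6 arrays. Signals of Apoa1, Apoc3, the bright Apoe probe set, the dim Apob probe set and Apoh do not overlap between groups, whereas those of Apoc1 do, and Apoa2, Apoa4, Apom and the dim Apoe probe set stay within or below the band.

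Apoa1 had the largest fitted change of the 5 tested members. Its signals were 160.1, 310.2 and 133.3 in controls 1 to 3, all above background, and 3073, 6149 and 1100 in dexamethasone cultures 1 to 3. The lowest treated culture was thus above the highest control culture. The fitted rise was 14.6-fold (interval 10.1 to 21.3, log2 change 3.87 ± 0.24, adjusted p = 6.30e-06), and by replicate number it was 19.2-fold, 19.8-fold and 8.25-fold. Treated cultures differed widely, with an SD of 2545 around a mean of 3441. The log2 change was 4.53 without dexamethasone 3 and 3.29 without dexamethasone 2, both in a fit without pairs.

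Apoc3, which slows lipolysis and remnant uptake and is the neighbour of Apoa1, rose in the same cultures. Signals were 367.0, 570.6 and 364.9 in controls and 1582, 3484 and 920.4 with dexamethasone, so the groups did not overlap. The rise was 4.05-fold (interval 2.87 to 5.71, log2 change 2.02 ± 0.22, adjusted p = 1.64e-04). For each replicate number it was smaller than that of Apoa1, at 4.31-fold, 6.11-fold and 2.52-fold. The intervals of the 2 genes, from the fit with the replicate block, did not overlap. The difference between their changes was not tested.

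The next gene of the chromosome 8 group, Apoa4, an apolipoprotein of intestinal particles, was below background on all 6 arrays. Its signals were 8.8, 15.1 and 8.3 in controls and 8.4, 12.4 and 12.7 in treated cultures, which overlap. Apoa5, which promotes triglyceride lipolysis, was above background on all arrays, with signals of 273.1, 210.2 and 322.8 in controls and 271.3, 215.1 and 208.1 with dexamethasone. It did not pass the test (log2 change -0.20 ± 0.20, interval -0.66 to 0.26, adjusted p = 0.473). Within the group, therefore, Apoa1 and Apoc3 rose, Apoa5 did not pass and Apoa4 was not measurable.

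In the chromosome 1 group, Apoe, Apoc1 and Apoc4 rose by similar fitted amounts. Apoe was bright in controls, with signals of 7839.6, 9976 and 8497, and reached 19363, 19884 and 20777 with dexamethasone. The groups were far apart and the treated cultures close together. On average 9 probe sets were brighter than Apoe with dexamethasone. Whether Apoe was at a ceiling there, which would understate its rise, was not tested. The rise was 2.29-fold (interval 1.98 to 2.66, log2 change 1.20 ± 0.09, adjusted p = 2.63e-05). A second Apoe probe set gave signals of 2.4 to 4.4 on all arrays, below background, and carries no information on the gene.

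Apoc1, which inhibits lipase and receptor-mediated uptake, gave 94.6, 356.8 and 91.1 in controls and 262.8, 660.3 and 237.7 in treated cultures. The groups overlapped, because control 2 was brighter than dexamethasone 1 and dexamethasone 3. Within each replicate number the treated culture was higher, by 2.78-fold, 1.85-fold and 2.61-fold. The fitted rise of 2.38-fold (interval 1.73 to 3.26, log2 change 1.25 ± 0.20, adjusted p = 0.0015) depended on the pairing, with an adjusted p of 0.0948 when the replicate block was left out. Without the block, the log2 change was 1.90 when control 2 was left out, and the call was then made. Leaving out any other single array in that fit gave no call, with log2 changes of 0.78 (adjusted p = 0.303, without dexamethasone 2) to 1.52 (adjusted p = 0.0607, without dexamethasone 3).

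Apoc4, a minor C apolipoprotein that lies beside Apoc1 and is not among the 9 genes, was steady between cultures. Signals were 3786, 4332.5 and 4179 in controls and 8959.7, 9159 and 8778 with dexamethasone, a rise of 2.19-fold (interval 1.89 to 2.55, log2 change 1.13 ± 0.10, adjusted p = 3.87e-05). The intervals of Apoe, Apoc1 and Apoc4 overlapped one another. The levels of Apoc2 were not analysed here.

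The promoter windows of the 3 genes of the chromosome 1 group that rose are shown because the fitted rises of these neighbours were similar in size. The windows are from RefSeq, build GRCr8, and run from 250 bases before to 50 bases after an annotated start, 5′ to 3′ on the minus strand of chromosome 1. Of the 9 genes, 5 had at least 1 window: Apoa4, Apoc1, Apoe, Apoh and Apom. Capitals mark letters that match a searched motif on either strand: the glucocorticoid receptor core TGTTCT, the nuclear receptor core AGGTCA, the HNF4 site CAAAGTCCA, the C/EBP site TTGCGCAA and the TATA box TATAAA.
Apoe, chr1:88484650-88484949 (1 of its 3 windows): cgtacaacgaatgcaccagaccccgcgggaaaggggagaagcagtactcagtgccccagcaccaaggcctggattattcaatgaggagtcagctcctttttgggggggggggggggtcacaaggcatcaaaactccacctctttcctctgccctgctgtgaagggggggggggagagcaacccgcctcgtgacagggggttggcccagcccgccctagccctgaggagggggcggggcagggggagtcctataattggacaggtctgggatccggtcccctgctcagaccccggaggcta
Apoc1, chr1:88478256-88478555 (1 of its 2 windows): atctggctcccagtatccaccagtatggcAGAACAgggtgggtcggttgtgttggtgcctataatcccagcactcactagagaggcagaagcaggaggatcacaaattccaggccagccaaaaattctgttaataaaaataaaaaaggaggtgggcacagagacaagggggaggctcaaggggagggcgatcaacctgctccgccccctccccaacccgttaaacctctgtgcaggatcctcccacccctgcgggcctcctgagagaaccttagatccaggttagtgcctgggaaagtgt
Apoc4, chr1:88467860-88468159: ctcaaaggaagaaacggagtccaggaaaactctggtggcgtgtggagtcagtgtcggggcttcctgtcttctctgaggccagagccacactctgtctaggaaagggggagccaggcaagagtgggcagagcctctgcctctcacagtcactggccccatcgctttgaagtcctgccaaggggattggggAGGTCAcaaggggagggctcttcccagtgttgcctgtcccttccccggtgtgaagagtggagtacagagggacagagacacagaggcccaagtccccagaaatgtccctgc

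None of the 3 Apoe windows held any of these motifs. The Apoc1 window shown held TGTTCT on the opposite strand at -221 from the start, its second window held none of the motifs, and the Apoc4 window held AGGTCA at -61. TGTTCT occurs in 20.7% of the 33469 windows of this length and AGGTCA in 16.2%, so these letters are common. A full glucocorticoid response element, with both arms 3 bases apart, was in 5 of all windows and in none of those of these genes. The Apoh and Apoa4 windows held none of the motifs, and that of Apom, which was at background, held TGTTCT. A match is a description of letters and not a site, and no match says only that the letters are not in the window.

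Genes on either side of both groups did not share a single direction. Among the 5 protein-coding genes on each side of the chromosome 1 group, 6 were tested, of which 2 rose, 1 fell and 3 did not pass. Of all genes tested, 17.0% were higher and 21.4% lower, so calls in both directions are common. Tomm40, an outer mitochondrial import channel and the gene next to Apoe, did not pass (log2 change 0.07 ± 0.15, interval -0.26 to 0.41, adjusted p = 0.729). Clptm1, next to Apoc2, rose by 0.37 ± 0.12 (adjusted p = 0.0431), and Bcam, an adhesion molecule, fell by 1.01 on the log2 scale (adjusted p = 0.0014). Relb, an NF-kB subunit, rose by 0.57 ± 0.17 (adjusted p = 0.0278). The calls of Clptm1 and Relb were lost with hybridization control scaling, without a filter and without replicate 2 or replicate 3. That of Clptm1 was also lost with quantile normalization and without the intensity trend. That of Relb was also lost without replicate 1 and without the replicate block (adjusted p = 0.0501).

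Around the chromosome 8 group, 6 flanking genes were tested, and again 2 rose, 1 fell and 3 did not pass, against 17.0% higher and 21.4% lower among all genes. Sidt2, a lysosomal membrane protein, rose 2.70-fold (log2 change 1.43 ± 0.12, adjusted p = 4.32e-05) and Pcsk7, a proprotein convertase, 2.10-fold (adjusted p = 0.0058). Sik3, a kinase gene next to Apoa1, did not pass (0.13 ± 0.14, interval -0.18 to 0.45, adjusted p = 0.487). Pafah1b2 fell by 0.44 on the log2 scale (adjusted p = 0.0254), a call lost with median or 75th percentile centring and without any 1 of the 3 replicate pairs. Bud13 did not pass (-0.50 ± 0.17, adjusted p = 0.0503), though it did without the replicate block (adjusted p = 0.0324).

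**Figure D2:**
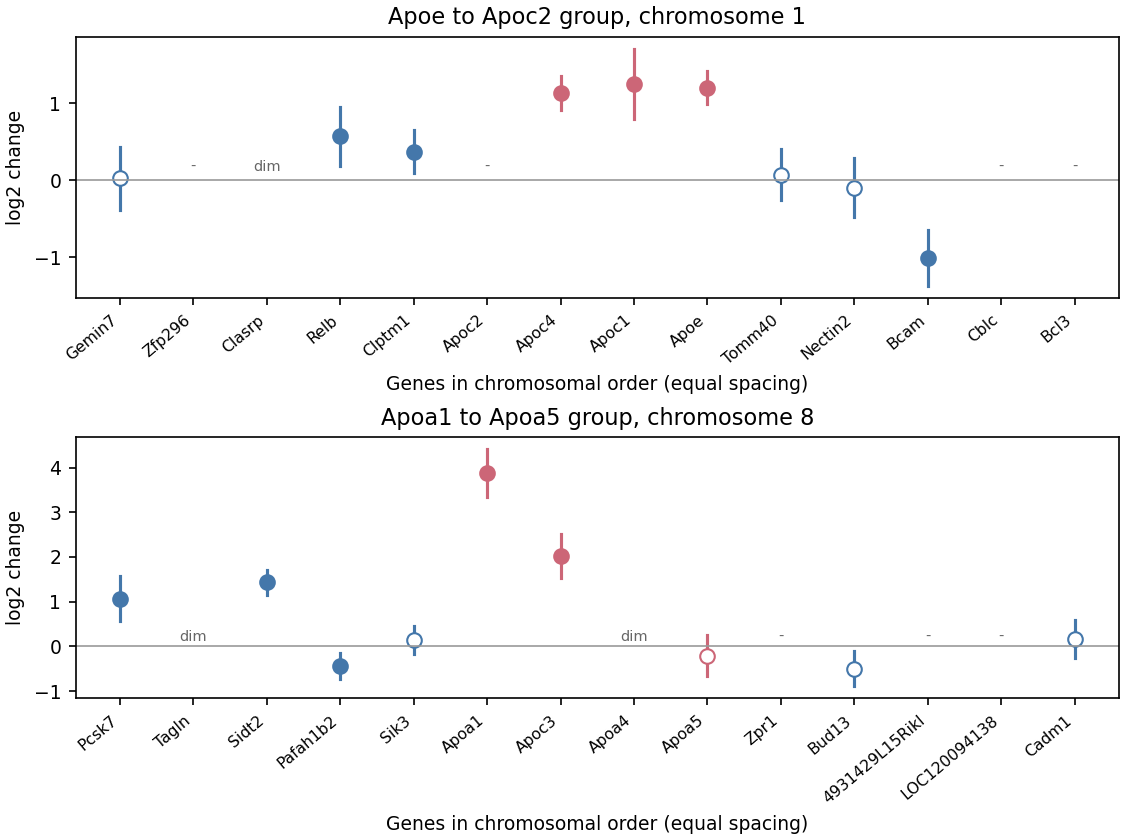
log2 change with its 95% interval for protein-coding genes in chromosomal order (equal spacing, not distance) across both apolipoprotein groups, in red, and 5 genes on each side, in blue; filled points passed the test, open points did not, "dim" marks genes below the filter and a dash marks genes with no value here. Apoc4, Apoc1 and Apoe sit at 1.13 to 1.25, and Apoa1 and Apoc3 at 3.87 and 2.02, while flanking genes lie between -1.01 and 1.43.

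Apob was measured by 2 probe sets that differed. The brighter gave 284.8, 215.8 and 244.1 in controls and 283.4, 307.4 and 218.6 with dexamethasone, all above background and overlapping. It did not pass (log2 change 0.11 ± 0.20, interval -0.33 to 0.56, adjusted p = 0.685). The dimmer gave 16.5, 54.6 and 15.8 in controls, all below background, and 156.4, 355.1 and 103.8 with dexamethasone, where cultures 1 and 2 were above it. Taking the background level for the controls and dexamethasone 3 at its measured signal, the treated mean was 2.76-fold higher. Dexamethasone 3 was below background, so this is not a strict lower bound. A limma fit without the filter called the rise (adjusted p = 0.0014). Which of the 2 follows the Apob transcript was not tested.

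Apoh, also called beta-2-glycoprotein I, a plasma protein that binds anionic phospholipid, behaved like the dimmer Apob probe set. Its signals were 16.9, 70.1 and 14.1 in controls, all below background, and 154.0, 302.9 and 112.0 with dexamethasone, of which cultures 1 and 2 were above it. The groups did not overlap, and the rise was 2.67-fold on the same terms (adjusted p = 0.0025 by limma without the filter). In that fit 5 of the 9 genes were higher, counting 1 probe set per gene, against 10.2% of 10411 genes. None of the 9 was lower in it, at an adjusted or an unadjusted p under 0.05.

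Apoa2, another protein of high-density lipoprotein, gave 54.2, 24.1 and 8.8 in controls and 38.2, 57.9 and 35.5 with dexamethasone. Apom, which carries sphingosine 1-phosphate on high-density lipoprotein, gave 16.5, 29.0 and 15.4 in controls and 10.0, 19.4 and 89.8 with dexamethasone. Neither was above background on any array, including the 89.8 of dexamethasone 3, where the background level was 115.9. A change in these genes was not detectable at these signals.

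**Figure D3:**
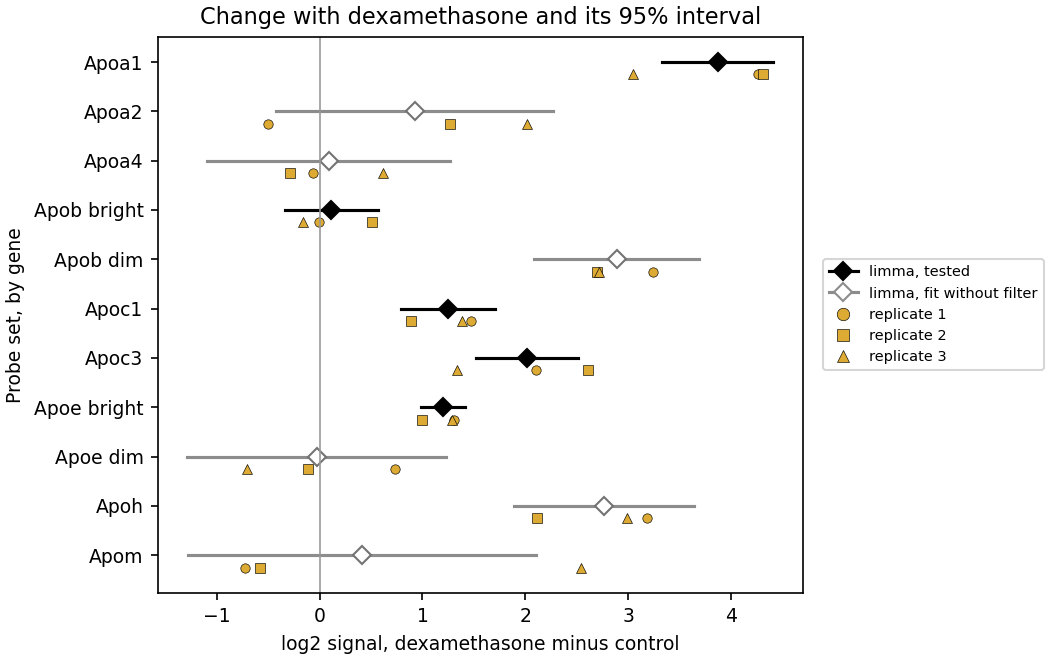
log2 change (dexamethasone minus control) of each apolipoprotein probe set from limma with its 95% interval, as black diamonds for tested probe sets and open diamonds for those below the filter, fitted without it; yellow points are the 3 replicate numbers. Apoa1 lies at 3.87, Apoc3 at 2.02, Apoc1 at 1.25 and Apoe at 1.20, and the dim Apob probe set and Apoh, whose controls were below background, at 2.89 and 2.76.

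Ordered by the fitted change, Apoa1 stood above Apoc3, and the intervals of these genes overlapped neither each other nor that of Apoe. All intervals compared here are from the fit with the replicate block, and intervals without it were not compared. Apoc1 and Apoe were next, at nearly the same log2 change, and the interval of Apoc1 also overlapped that of Apoc3. The brighter Apob probe set came last, and the upper end of its interval, a 1.48-fold rise, was below the lower end for Apoc1, at 1.73-fold. Apoh and the dimmer Apob probe set were not placed in this order, because their control level was not measured.

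The 3 replicate numbers gave rises of differing size. For Apoa1 and Apoc3 the rise was smallest for replicate 3, where Apoc3 rose 2.52-fold, and the treated signal of that culture was the lowest. For Apoc1 and Apoe it was smallest for replicate 2, at 1.85-fold and 1.99-fold, and replicates 1 and 3 were close to each other in both genes (2.47-fold and 2.45-fold for Apoe). The brighter Apob probe set had no common direction, with ratios of 0.995, 1.42 and 0.896. Signals of Apoh and of the dimmer Apob probe set were higher in the treated culture for each replicate number, but no ratio is given against a control below background.

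The 9 genes differed in how much cultures of a group varied. The SD of log2 signal among controls was 0.64 for Apoa1, 1.12 for Apoc1 and 0.37 for Apoc3, and among treated cultures 1.25, 0.81 and 0.97. The median over the 9520 tested probe sets was 0.15 in controls and 0.20 in treated cultures, and each of these values lay at percentile 92.9 or higher. For Apoe the SD was 0.18 in controls and 0.05 in treated cultures, at percentiles 61.4 and 5.3. Ctrc, an acinar protease gene, also had a small SD in treated cultures, 0.01, with signals of 19668 to 20063, against 2341 to 3751 in controls. Whether signals as bright as those of Apoe and Ctrc in treated cultures had reached a ceiling was not tested.

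The variation went the same way in several genes. Control 2 was above the other controls, by 2.12-fold over their mean for Apoa1, 1.56-fold for Apoc3 and 3.84-fold for Apoc1. Dexamethasone 2 was likewise above the other treated cultures, by 2.95-fold, 2.79-fold and 2.64-fold. For the dimmer Apob probe set and Apoh all controls were below background, so their order among controls is not measured. Among treated cultures, dexamethasone 2 was the highest for both. Dexamethasone 3 was the lowest treated culture for all 5 probe sets, and was below background for the dimmer Apob probe set and Apoh. Apoe did not follow this order among treated cultures, where dexamethasone 2 was 0.991 times the mean of the others. Replicate 2 was highest in both groups for 12.6% of genes tested, and in 8.25% dexamethasone 3 was also the lowest treated culture.

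Some markers of hepatocytes moved with these cultures. Signals of 12 hepatocyte markers summed to 5109, 7471 and 3402 for controls 1, 2 and 3, and to 19778, 32809 and 11030.5 for treated cultures 1, 2 and 3. Probe sets are not on a common scale, so this sum is weighted to the brightest of them and does not measure a cell type. The sum, too, was highest for replicate 2. It was carried by few probe sets: in dexamethasone 2, Ttr gave 12962, Hpx 10329, Hp 3211, Serpina1 2714 and Cyp2e1 2479. Those 5 rose, Ambp fell by 1.35 on the log2 scale and Ahsg did not pass (-0.02 ± 0.21, interval -0.50 to 0.47, adjusted p = 0.957), and the other 5 were too dim to be tested. Thus 5 of 7 tested were higher and 1 was lower, against 17.0% higher and 21.4% lower among all genes. Pancreatic acinar markers, described below, rose at a similar rate, 7 of 10 tested. Of the 12, 9 were above background on every control array and 7 on every treated array. The background levels were 51.7 to 97.3 on control arrays and 83.7 to 115.9 on treated arrays, so these counts do not compare signals between groups. Transthyretin (Ttr), the thyroid hormone carrier made by liver, went from 995.9, 1725 and 349.8 to 7129, 12962 and 1348. Albumin (Alb), one of the dim markers, gave 75.2 to 110.1 in controls and 65.8 to 146.2 in treated cultures. The part of these markers in the apolipoprotein results was not tested.

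For the other lists too, sums are weighted to the brightest probe sets, and counts above background do not compare signals between groups. Of 9 enterocyte markers, 4 were above background on every control array and 3 on every treated array. The fatty acid binding proteins Fabp1 and Fabp2 were above it on none. For these 9 markers the counts include Fabp1 and Fabp2. The summed signal of the 9 was 2415 to 2783 in controls and 2833 to 4287 in treated cultures. Of the 3 tested, Lgals4 rose 9.27-fold, whereas Cdx2 and Cdh17 did not pass. Of 10 macrophage and blood markers, 6 were above background on every control array and 3 on every treated array, and their summed signal was 1194.5 to 1312 and 1264 to 1475.5. Ptprc, the common leukocyte antigen, and Itgam were above it on no array. All 11 pancreatic acinar markers were above background on every array, with summed signals of 82702.5 to 98890 in controls and 122118 to 135255 with dexamethasone. Of the 10 tested, 7 rose and 0 fell, against 17.0% higher and 21.4% lower among all genes. Of 9 stromal and endothelial markers, 5 were above background on every control array and 4 on every treated array (summed signal 822.6 to 924.7 in controls and 932.1 to 1151 in treated cultures). Of the 2 tested, Pecam1 rose by 1.05 on the log2 scale (adjusted p = 0.0143 by limma) and Col1a1 did not pass.

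**Figure D4:**
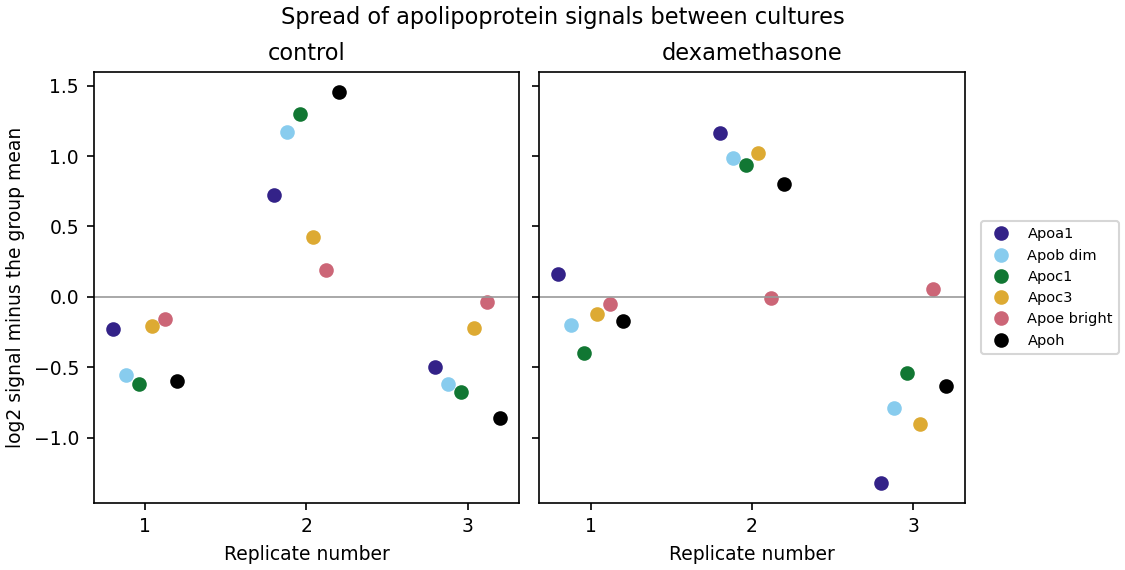
log2 signal of 6 apolipoprotein probe sets relative to the mean of their group, by replicate number, for controls (left) and dexamethasone cultures (right). In both groups replicate 2 is highest for Apoa1, Apoc1, Apoc3, the dim Apob probe set and Apoh, and the bright Apoe probe set stays close to 0 in treated cultures. Controls of the dim Apob probe set and of Apoh were below background, so their order is not measured.

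Genes with the most similar profile over the 6 arrays were found by the root mean square difference of log2 signals centred on each gene's mean, among 7050 other genes. Apoa1 was nearest to Lgals4, a gut lectin (difference 0.45), and Cyp2c6v1, a cytochrome P450 of liver (0.51). Apoc3 was nearest to Aldh1l1, a folate enzyme (0.24), and Cfi, a complement regulator (0.24). Apoc1 was nearest to Serpinf2, the plasmin inhibitor of plasma (0.45), and Grm8, a glutamate receptor (0.46). Apoe was much closer to its nearest genes, Alkbh7 and Tnip1 (both 0.06). The measure is a description and includes the difference between groups.

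Beyond the 9 genes, 64 tested genes of lipoprotein handling were examined in 5 lists: 23 rose, 10 fell and 31 did not pass. Thus 51.6% changed, against 38.4% of all genes tested (17.0% higher and 21.4% lower). The lists were chosen with earlier results of these data known, so this share and those of each list below are descriptions only. The median log2 change was 0.04, against -0.04 for all genes tested. Rises outnumbered falls with the deposited scaling but not with hybridization control scaling, where 17 rose and 20 fell and the median of all genes was -0.29. The 4 calls among the 9 genes were kept with that scaling, with quantile normalization and with centring on the median or 75th percentile.

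Among other apolipoproteins and plasma carriers, 5 of 6 tested rose and 0 fell by limma, also at an unadjusted p under 0.05, with a median log2 change of 1.50. Thus 83.3% changed, against 38.4% of all genes tested. Besides Apoc4 and Ttr (5.92-fold, log2 change 2.57 ± 0.18, adjusted p = 1.50e-05, with overlapping groups), clusterin (Clu, also called apolipoprotein J) rose from 500.7 ± 54.7 to 1665 ± 239 (3.32-fold, adjusted p = 2.88e-05). Azgp1 rose 3.52-fold and Lcn2, which binds siderophores, 2.41-fold. In a fit without pairs, the call of Ttr was lost when control 1, control 3, dexamethasone 1 or dexamethasone 2 was left out (adjusted p = 0.052 to 0.0947), and its log2 change ranged from 1.88 without dexamethasone 2 to 3.51 without dexamethasone 3. The call of Lcn2 was lost without replicate 1 or replicate 2. The retinol carrier Rbp4 was below background on all arrays.

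In assembly and secretion, 5 of 16 tested genes rose and 2 fell, or 43.8% changed against 38.4% of all genes (5 and 4 with hybridization control scaling). Dgat2, which completes triglyceride synthesis, rose from 1829 ± 154 to 5242 ± 982 (2.84-fold, adjusted p = 2.00e-05). Mia2 and Mia3, receptors that load bulky cargo at endoplasmic reticulum exits, rose 2.02-fold (adjusted p = 5.54e-04) and 1.68-fold (adjusted p = 0.0033). Sort1, a sorting receptor that binds apolipoprotein B, fell by 1.15 on the log2 scale (adjusted p = 0.0040). Syncrip, an RNA-binding protein of the Apob editing complex, fell by 0.82 (adjusted p = 0.0087) but did not pass when replicate 1 or replicate 2 was left out. Apobec1, the enzyme that edits Apob mRNA, was below background on every array, with signals of 2.7 to 5.6, and Mttp, which loads lipid onto apolipoprotein B, was not analysed here.

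In lipid efflux and remodelling, 2 of 5 tested genes rose and 1 fell, or 60% changed against 38.4% of all genes (0 and 2 with hybridization control scaling). The sterol exporter Abcg1 rose 1.48-fold (adjusted p = 0.0074) and the lipase maturation factor Lmf1 1.36-fold (adjusted p = 0.0420), and both calls were lost with hybridization control scaling. That of Abcg1 was also lost without control 2, and that of Lmf1 without any 1 of the 3 replicate pairs. Lipc, hepatic lipase, fell from 254.1 ± 87.0 to 109.0 ± 14.9, by 1.17 on the log2 scale (adjusted p = 0.0037).

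In receptors and uptake, 4 of 13 tested genes rose and 1 fell, or 38.5% changed, as among all genes (2 and 3 with hybridization control scaling). Lrp1, a receptor for Apoe-bearing remnants, rose from 214.0 ± 16.5 to 405.4 ± 6.4 (1.90-fold, adjusted p = 0.0029), and Lipa, the lysosomal lipase that frees the cholesterol taken up, rose 2.03-fold (adjusted p = 0.0030). Lrp10 and Scarb2 rose 1.52-fold and 1.49-fold, calls lost with hybridization control scaling and without replicate 1, and for Lrp10 also without replicate 2 and for Scarb2 without replicate 3. Sorl1, a sorting receptor that binds Apoe, fell by 0.58 on the log2 scale (adjusted p = 0.0049). Scarb1, the high-density lipoprotein receptor, did not pass (-0.34 ± 0.20, interval -0.79 to 0.12, adjusted p = 0.224), but was lower with hybridization control scaling (adjusted p = 0.0463). The sterol exporter Abca1 was not analysed here.

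Among transcription regulators, 7 of 24 tested rose and 6 fell, or 54.2% changed against 38.4% of all genes (5 and 11 with hybridization control scaling). Nr1h3, the liver X receptor alpha, an oxysterol sensor whose known targets include Apoe and Abcg1, rose from 118.5 ± 13.0 to 401.7 ± 75.7 (3.37-fold, adjusted p = 3.59e-04). Hnf4a, a known activator of Apoa1, Apoc3 and Apob, rose 1.79-fold (adjusted p = 0.0039), whereas Onecut1, another liver-enriched factor, fell from 892.1 ± 123.3 to 260.7 ± 20.1 (by 1.77 on the log2 scale, adjusted p = 6.45e-05). Cebpb rose by 3.84 ± 0.17 on the log2 scale, Foxo1 2.43-fold and Nr1d1, a clock repressor that acts on Apoc3 and Apoa1, 2.22-fold. The log2 signal of Nr3c1, which encodes the glucocorticoid receptor, fell by 0.48 (adjusted p = 0.0157). That decrease no longer passed with 75th percentile centring or when replicate 1 or replicate 3 was left out, and Foxo1 no longer passed without replicate 1.

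**Figure D5:**
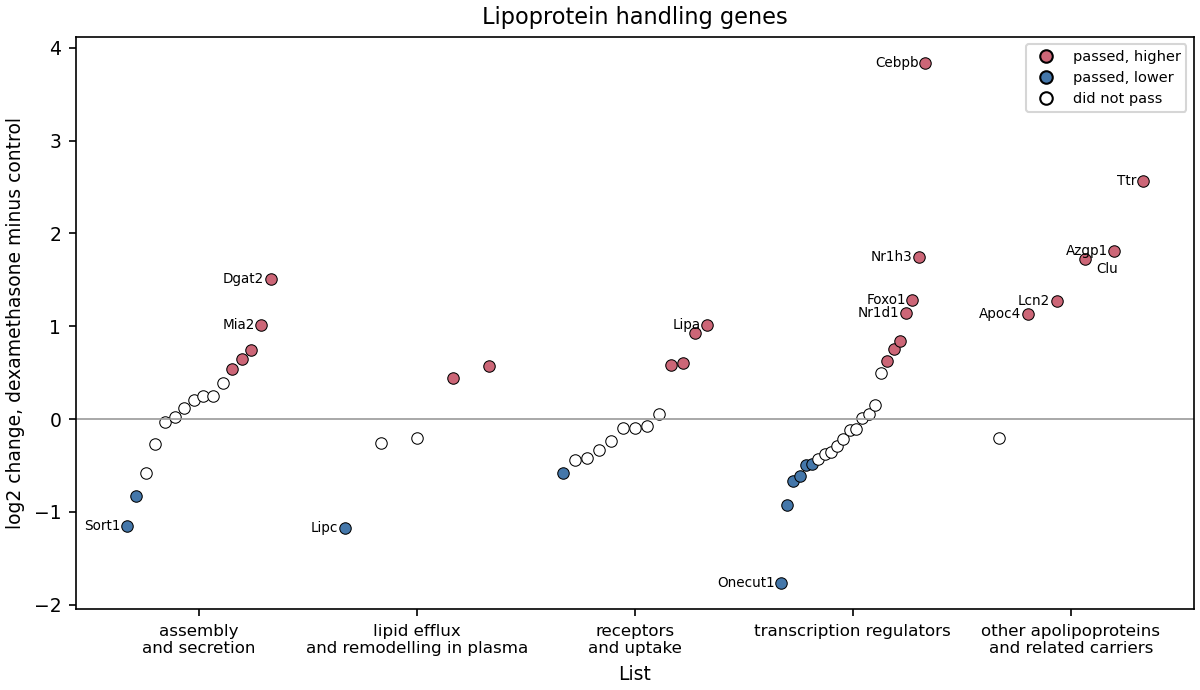
log2 change with dexamethasone of each tested gene in 5 lists of lipoprotein handling genes, sorted within a list; red points passed the test as higher, blue as lower and white did not pass. Named points changed by more than 1 on the log2 scale, from Onecut1 at -1.77 to Cebpb at 3.84.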

How the data were processed

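The deposited values are linear signal intensities that the authors obtained with MAS5 in GCOS, per the submitters' processing notes. Software versions and scaling settings are not given in the sources used here. The trimmed mean (2% off each end) was 500.1 on every array, so signals are relative to an array's total.

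Of 15923 probe sets, 57 array controls were set aside. Names came from the GEO platform annotation, updated through the NCBI table of GRCr8: 12783 probe sets had 1 symbol, 312 had several and 2771 were unnamed here. A gene was represented by its brightest one-symbol probe set (10411 genes). At most 47 values were identical between 2 arrays.

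Signals were taken to log2 (4 values of 0 set to 0.1), and probe sets at or above the 40th percentile of mean log2 signal (signal 147.6) were tested: 9520 probe sets, 7051 genes. limma 3.58.1 in R 4.3.3 fitted treatment with replicate number as a block (eBayes with an intensity trend) and Benjamini-Hochberg adjustment at 0.05. The fit was tested on simulated data. The design text calls the cultures pairs but does not say that the replicate number marks the pair. Deviations from the group mean correlated at -0.10, 0.11 and 0.21 for replicates 1, 2 and 3, and at -0.25 to 0.18 for cultures with different numbers, so the values do not show that the numbers mark pairs. The p-values from the fit with the block cover the spread left in these cultures after the shared level of each replicate number is removed. Those from the fit without the block cover the spread among these cultures within a group.

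Where a group was at background on every array, its background level was used for a fold. That fold is a strict bound only if the other group was above background throughout. The array number limits precision. Members, lists, motifs and markers were chosen with earlier results of these data known. The flanking genes, the background level and the alternatives without a filter that change a second setting were chosen after seeing the data. The text names every member, the 5 largest changes past the threshold in each list and a few fixed genes. Some planned items are not reported here. The alternatives tried were other scalings, filters, a pseudocount, no intensity trend, no block and left-out arrays.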

Additional observations from a re-analysis of the deposited data

How the results depend on the processing

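The 4 calls among the 9 apolipoprotein genes held with every scaling, no intensity trend, a pseudocount of 18.6 and each replicate pair left out; a stricter filter (60th percentile) left Apoc1 out and 3 calls, and no filter gave 5. With 2 pairs left, each probe set has 1 residual degree of freedom and the fit leans on the spread pooled over probe sets. Leaving out replicates, as pairs or as single arrays in a fit without pairs, gave 3 to 4 calls, 25 to 33 lipoprotein handling genes changed (16 to 22 higher, 6 to 11 lower) and 2461 to 3530 probe sets changed. Without the replicate block, 3 apolipoprotein genes, 34 handling genes and 3542 probe sets changed, against 4, 33 and 3531 with it; Apoc1 (adjusted p = 0.0948) and Relb lost their calls and Bud13 gained one, while the other named genes kept theirs. With hybridization control scaling 20 handling genes were lower, against 10.

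The share of changed probe sets that were higher was 42.8% with the deposited scaling, 48.1% with quantile normalization, 51.0% and 57.5% with centring on the median and 75th percentile, and 19.3% with hybridization control scaling. For 47 genes of the lists and flanks, 753 of 832 alternative fits kept the direction and side of the threshold, 72 lost a call, 7 gained one and 0 changed direction with a call. The dim Apob probe set and Apoh kept their calls in each fit without a filter, with log2 changes of 2.55 to 3.09 when a pair was left out. Signals near background limit what can be said of Apoa2, Apoa4 and Apom.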

Other observations

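The pattern over replicate numbers described for Apoa1, Apoc1 and Apoc3 was shared by few genes at that size. A search made after their values were seen asked for genes in which replicate 2 exceeded both other cultures of its group by more than 0.5 on the log2 scale in controls and again in treated cultures. It found 17 of 7051 tested genes (0.241%): the 3 apolipoproteins and 14 others, Agt, Ambp, Asgr1, Cbln2, F10, Gucy2c, H19, Ifi27l2b, Igfbpl1, Las1l, Lgals4, Lypd8, Tat and Ttr. The control signals of Tat, 23.2, 34.0 and 13.3, were below background, so their order is not measured, and dexamethasone 3 of Cbln2, Ifi27l2b and Igfbpl1 was also below background.

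Of the 17, 10 were higher with dexamethasone, the 3 apolipoproteins included, 5 were lower and 2 did not pass, against 17.0% higher and 21.4% lower among all genes tested. Ambp, the precursor of a plasma protease inhibitor, gave 726.7, 1291 and 506.7 in controls and 269.1, 403.8 and 265.4 with dexamethasone. H19, an imprinted RNA of fetal tissues, gave 489.4, 1312.5 and 298.5 in controls and 368.8, 628.6 and 230.0 with dexamethasone. Lypd8 had the widest treated range of the 17 on the log2 scale, with signals from 148.4 to 3251. Of 887 tested genes with replicate 2 highest in both groups by any amount, dexamethasone 3 was the lowest treated culture in 582. Among treated cultures it was likewise the lowest in 16 of the 17. Because the genes were picked for this order, no test was made of it.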
